A study of Mus musculus with 11 samples.

Results

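The solute carrier (SLC) genes of the mouse cerebral cortex were followed in endothelial cells (ECs), choroid plexus epithelium and pericytes. Members were chosen by their symbol, which had to begin with Slc, and by their measured total, which had to reach 1000 unique molecular identifiers (UMIs, each the tag of 1 captured transcript) over the 11 libraries. Of 26921 genes in the files, 376 had such a symbol and 216 of these reached the minimum, while 160 did not. The total therefore favoured genes of the cell types that gave most UMIs, and no finding is drawn from it. The largest totals belonged to Slc2a1 with 240645 UMIs, Slc25a5 with 162125, Slc3a2 with 159334 and Slco1a4 with 132878. Just above the minimum lay Slc25a29 with 1007 UMIs, Slco2a1 with 1019, Slc22a15 with 1046 and Slc9b2 with 1048. Just below it lay Slc13a3 with 999 UMIs, Slc28a3 with 998, Slc22a18 with 943 and Slc14a1 with 885. By family, 36 members are Slc25 genes, most of which encode carriers of the inner mitochondrial membrane (Slc25a17 is a peroxisomal carrier and Slc25a46 a protein of the outer membrane). Another 23 belong to the amino acid families Slc3, Slc7, Slc36, Slc38 and Slc43, 5 to Slc1 (carriers of glutamate and neutral amino acids) and 8 to Slc6 (carriers of neurotransmitters, amino acids, taurine and creatine). The other large classes are 23 nucleotide sugar carriers and their relatives (Slc35 genes), 18 zinc and manganese carriers and 11 monocarboxylate and thyroid hormone carriers, and the rest fall into smaller classes. The symbol is not a guarantee of transport: the products of Slc9a3r1 and Slc9a3r2 are scaffold proteins, Slc7a6os and Slc4a1ap take their symbols from a neighbouring gene or a binding partner, and Slc2a4rg-ps is a pseudogene.

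Solute carriers are membrane proteins that move sugars, amino acids, ions, vitamins, hormones and metabolites by facilitated diffusion or by coupling the solute to an ion gradient. In the brain they matter most at the barriers: ECs joined by tight junctions take up glucose, amino acids and thyroid hormone from blood through carriers in their membranes, and the epithelium of the choroid plexus secretes cerebrospinal fluid by moving sodium, chloride and bicarbonate. Pericytes, the mural cells that share the basement membrane of capillaries, carry their own set of amino acid and organic anion carriers.

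Cells came from myelin-depleted cortex of C57BL/6 mice and were captured with 10x 3′ v2 chemistry in 4 juvenile libraries (postnatal day 10), 3 adult libraries (7 to 11 weeks), 2 aged libraries (18 months) and 2 libraries of experimental autoimmune encephalomyelitis (EAE, 7 to 11 weeks, peak of disease), the last from female mice given a myelin oligodendrocyte glycoprotein peptide in complete Freund's adjuvant and pertussis toxin. The other mice were untreated. Each pool combined cortices of 6 mice at the juvenile and adult stages but of 3 mice in the aged and EAE conditions. No source says whether libraries of 1 condition came from separate pools, so p-values measure the spread between libraries, which may be technical. Libraries held 15755504 to 34326349 UMIs, and 50625 of 54646 barcodes were kept, with a median of 2420 to 4200 UMIs per kept cell. Clusters were built without any Slc gene and named from marker genes, so the populations are EC-like, choroid plexus epithelium-like and pericyte-like cells, written below without the suffix. They held 19871 ECs (159 to 3639 per library), 6519 choroid plexus epithelial cells (180 to 1114) and 605 pericytes (27 to 114, and 9 in Adult 1). Different clusters held most cells of a type: among ECs cluster 0 (led by Degs2 and Sema3c) in adult, aged and EAE libraries, cluster 3 (led by Aplnr and Apln) in juvenile libraries and cluster 11 (led by Serpina3n and Lcn2) nearly only in EAE, and in the choroid plexus cluster 2 (led by Cox8b and Prlr) at later ages and cluster 8 (led by Wfikkn2 and Defb11) in juvenile libraries. The carrier levels of the whole population were compared in each case.

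Adult 1 stood apart. Its ECs held choroid plexus marker RNA at 14.2% of the level in the epithelium itself, against 1.08% to 5.07% in the other 10 libraries, and most of its EC-like and pericyte-like cells were set aside for red cell or choroid plexus RNA (cluster 12, led by Hba-a2, and 1 mural subcluster, led by Enpp2). This left 159 of 890 ECs and 9 of 199 pericytes, below the minimum of 10 cells, so Adult 1 was not used for pericytes. With those cells put back, the counts of called members given below would be 109, 12 and 46 for juvenile, aged and EAE ECs and 18, 0 and 2 for pericytes. Adult 2 and Adult 3 ECs differed little more than counting error allows (chi-square per degree of freedom 1.40, against 7.89 and 7.55 for each with Adult 1) and were summed to 1 adult unit. The pairs Juvenile 1 and 2, Juvenile 3 and 4, Aged 1 and 2, and EAE 1 and 2 also lay close, at 1.84 to 2.66 in ECs, against 10.3 to 12.5 between the juvenile pairs. In the choroid plexus Adult 2 and 3 were at 1.49 and the other pairs at 1.21 to 1.78, with Juvenile 1 and 2 and Juvenile 3 and 4 closer than the adult pair. In pericytes Adult 2 and 3 were at 1.16 and the others at 1.14 to 1.41. The other pairs nevertheless count as separate replicates in the tests below. Ddx3y, a Y-linked gene, was seen only in Juvenile 3 and 4, so those pools held male tissue. The study's methods give female mice where nothing else is stated. The juvenile comparison thus includes male tissue on the juvenile side only. The part of sex in it was not tested, and Slc25a5 and Slc38a5 lie on the X chromosome. Library pairs shared at most 125 cell barcodes, those of EAE 1 and EAE 2. Because close pairs may understate the spread, the total of called members in each comparison is given also with every such pair summed, which leaves 6 units. Aged and EAE are then 1 unit each, assumed to vary like the other groups, so a call there has no replicate of its own. Counts by class or of opposite changes were not recomputed that way. Of the 216 members, 204 passed the filter on low counts in ECs, 206 in the choroid plexus and 46 in pericytes, where few cells were captured. A member is called where the adjusted p of edgeR's quasi-likelihood test was under 0.05 (Benjamini-Hochberg over all genes tested), and changes are log2 fold changes from adult with their standard error.

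Carrier transcripts made up 1.84% to 2.37% of all UMIs in ECs, 1.04% to 1.22% in the choroid plexus and 1.03% to 1.48% in pericytes. Levels are given as CPM, the UMIs of a gene per 1000000 UMIs of that cell type in that library. In the choroid plexus Ttr alone held 303687 to 363215 CPM, which lowers the CPM of every other gene there. Levels compared between cell types were not corrected for it. One end of each transcript is counted, so CPM is not divided by gene length. In ECs 19 members were higher than in every other named cell type in each library, against 0.893% of all genes measured there. This is a description of the clustered cells with no test. They include the glucose carrier Slc2a1 (GLUT1), the heavy and light chain Slc3a2 and Slc7a5 of the large neutral amino acid exchanger (LAT1), the cationic amino acid carrier Slc7a1, the glutamine carrier Slc38a5, the taurine carrier Slc6a6, the organic anion and thyroid hormone carriers Slco1a4 and Slco1c1, the thiamine carrier Slc19a3, the zinc and manganese carriers Slc39a8, Slc39a10 and Slc30a1, the monocarboxylate carriers Slc16a1 and Slc16a4, and the riboflavin carriers Slc52a2 and Slc52a3. The lead over the next cell type was widest for Slc7a5, at least 4.24 times in each library, and narrowest for Slc26a10 at 1.03 times and Slc16a1 at 1.08 times. With cell types by marker score 14 members led in each library in ECs, and with called doublets left out 18.

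In the choroid plexus 7 of the 216 members led in each library, beside 0.753% of all genes with any UMI there, again an unlike set. They were the bicarbonate carriers Slc4a5 and Slc4a2, the monoamine carrier Slc29a4 (PMAT), the sulfate carrier Slc13a4, the lactate carrier Slc16a8, the hexose carrier Slc2a12 and the organic anion carrier Slco1a5. Slc4a5 was at least 4.30 times its level in any other type, and Slc29a4 at least 3.26 times. Slc22a17, the receptor for lipocalin 2, had the highest adult level in the epithelium, 1061, 1089 and 1060.3 CPM in the 3 adult libraries, but did not lead in each library. In pericytes 4 of the 216 members led in each of the 10 libraries that had enough of these cells. Among all genes with any UMI there, an unlike set as well, 0.851% did. The 4 were the reduced folate carrier Slc19a1, the proline carrier Slc6a20a, the creatine carrier Slc16a12 and the manganese exporter Slc30a10. Slc6a20a and Slc19a1 were also the most abundant carriers of adult pericytes. Both genes overlap exons of another gene on the opposite strand (Gm17120 and Col18a1), and the strand setting of the counting is not given in the sources used here, so reads of those partners may be included. The plot of the most abundant members by cell type shows these sets side by side.

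**Figure D1:**
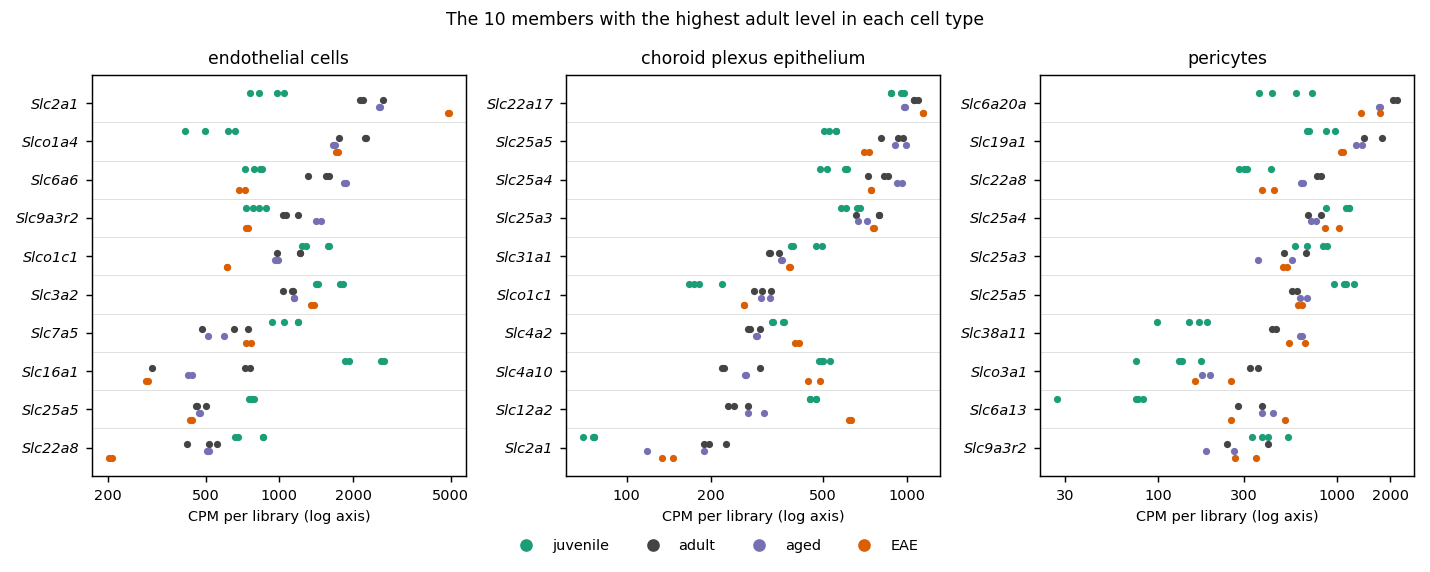
CPM (log axis) of the 10 most abundant adult members in ECs, choroid plexus epithelium and pericytes, 1 point per library, coloured by condition. In ECs the 2 EAE libraries of Slc2a1 lie furthest right, at 4871 and 4923 CPM, and the 4 juvenile libraries furthest left; in pericytes the 4 juvenile libraries of Slc6a20a lie apart from all others.

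Between postnatal day 10 and adulthood the endothelial carrier set changed widely. Of the 204 members tested, 100 were called, 49.0% of them against 37.7% of all genes, with 57 higher in juvenile ECs (18.4% of all genes were) and 43 lower (19.3%). The count was 52 with close pairs summed and 100 without Adult 1. The median change of the tested members was 0.04 on the log2 scale, beside -0.04 over all genes. Members had to reach a minimum UMI total over the libraries, and the other genes tested did not. The shares of 49.0% and 37.7% thus come from unlike sets, and no excess of changed carriers is concluded from them. The same limit holds wherever a share of members is set beside one of all genes below. Of the 20 tested genes of the amino acid families Slc3, Slc7, Slc36, Slc38 and Slc43, 11 rose, 1 fell (Slc38a6) and 8 were not called. Of 5 Slc1 genes 2 rose and 1 fell (Slc1a1). Of 7 Slc6 genes 3 rose, among them Slc6a15 at only 1.88 CPM in juvenile ECs, and 2 fell (Slc6a6 and Slc6a20a).

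Among these the glutamine carrier Slc38a5 stood at 1026, 1094, 1239 and 1215 CPM in juvenile ECs and at 285, 355 and 354 in adult ECs, a change of 1.92 ± 0.14, adjusted p = 1.32e-07. The exchanger chains followed: Slc7a5 was at 937, 1046, 1192 and 1190.2 CPM in juvenile and 486, 744 and 656 in adult ECs (0.97 ± 0.17, adjusted p = 4.79e-04), and Slc3a2 at 1412, 1441, 1764 and 1813 against 1037, 1125 and 1132 (0.68 ± 0.14, adjusted p = 0.00165). All 4 juvenile libraries lay above all 3 adult libraries for each of the 3 genes. The neutral amino acid carriers Slc1a4 (ASCT1) and Slc7a8 (LAT2) were low at later ages. Slc1a4 was at 155, 163, 127 and 124 CPM in juvenile ECs and at 4.48, 2.49 and 2.62 in adult ECs (5.80 ± 0.22, adjusted p = 1.09e-10), and Slc7a8 at 66.9, 68.4, 71.4 and 67.2 against 2.99, 3.74 and 2.76 (4.48 ± 0.21, adjusted p = 1.28e-09). Their aged and EAE levels stayed at or below 5.34 CPM. Slc43a3, a purine carrier named with the amino acid family, was at 31, 33.7, 28.4 and 28.4 CPM in juvenile and 5.98, 2.35 and 2.76 in adult ECs (3.51 ± 0.25, adjusted p = 8.43e-08), again without overlap.

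Fuel carriers moved in opposite directions. Slc2a1, which brings glucose across the barrier, was at 828, 759, 979 and 1048 CPM in juvenile ECs and at 2644, 2203 and 2144 in adult ECs (-1.29 ± 0.14, adjusted p = 6.06e-06). Slc16a1 (MCT1), which carries lactate and ketone bodies, was at 1930.3, 1859.6, 2598 and 2685 CPM against 302, 758 and 724 (2.17 ± 0.37, adjusted p = 0.00215). Neither pair of groups overlapped, and the lowest adult value of Slc16a1 belonged to Adult 1. Without that library the change of Slc16a1 was 1.69 and that of Slc2a1 -1.19, both still called. In the annotation of GRCm38 (GENCODE M21), Slc2a1 lies at chr4:119108711-119137983 and Slc16a1 at chr3:104638668-104658462, both on the plus strand.

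Of the organic anion and hormone carriers, Slco1a4 was lower in juvenile ECs, at 496, 414, 618 and 657 CPM against 1756, 2258 and 2233 (-1.76 ± 0.18, adjusted p = 6.57e-06). Slco1c1, which takes up thyroxine, was slightly higher, at 1289.5, 1238, 1599 and 1580.3 CPM against 982, 1211 and 1218 (0.48 ± 0.15, adjusted p = 0.0205), and its call was lost without Adult 1 and with close pairs summed. Juvenile libraries lay below adult libraries for Slco1a4 and above them for Slco1c1, without overlap. The organic anion carrier Slc22a8 (OAT3) was higher, at 657, 676, 859 and 856 CPM against 418, 557 and 515 (0.77 ± 0.16, adjusted p = 0.00165), as was the prostaglandin carrier Slco2a1, at 28.5, 31.5, 26.2 and 27.2 against 1.49, 3.88 and 3.03 (3.17 ± 0.25, adjusted p = 2.21e-07).

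Metal carriers were split in the same comparison. The iron exporter Slc40a1 (ferroportin) was at 647, 672, 798 and 765 CPM in juvenile ECs and 272, 497 and 493 in adult ECs (0.96 ± 0.21, adjusted p = 0.00354). The zinc and manganese importer Slc39a8 was at 421, 439, 469 and 467 CPM against 143, 196 and 195 (1.45 ± 0.14, adjusted p = 1.40e-06), and the copper importer Slc31a1 at 429.5, 411, 601 and 607 against 223, 254 and 262 (1.18 ± 0.19, adjusted p = 3.98e-04). Each of these rose without overlap, while the zinc exporter Slc30a1 fell, from 188, 239 and 232 CPM in adult to 116, 126, 102 and 104 in juvenile ECs (-0.86 ± 0.11, adjusted p = 3.49e-05). The equilibrative nucleoside carrier Slc29a1 was higher at 182, 181, 193 and 204 CPM against 37.4, 50.9 and 52.5 (2.06 ± 0.14, adjusted p = 3.75e-08). The glutamate carrier Slc1a1 was lower at 42.1, 45.1, 65.2 and 63.9 CPM against 278, 233 and 228 (-2.08 ± 0.17, adjusted p = 1.65e-06), and Slc26a10 at 7.43, 4.08, 5.5 and 4.71 against 62.8, 68 and 73.7 (-3.58 ± 0.15, adjusted p = 3.69e-10). Slc29a1 and Slc26a10 overlap exons of Gm17080 and B4galnt1 on the other strand.

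Slc25 genes made up the largest class, and 10 of 36 rose and 6 fell in juvenile ECs. Slc25a5 (ANT2), which exchanges ADP for ATP, was at 774, 786, 772 and 749 CPM in juvenile and 502, 459 and 463 in adult ECs (0.79 ± 0.10, adjusted p = 1.76e-05), and its paralog Slc25a4 (ANT1) at 511, 502, 532 and 532 against 353, 354 and 358 (0.66 ± 0.10, adjusted p = 1.28e-04). Neither overlapped. Both have near-identical processed copies in the genome that could share reads. Of the 43 members lower in juvenile ECs, 8 had at least 50% of their adult level matched by the choroid plexus RNA carried in those cells. Among them were Slc22a17, Slc4a2, Slc4a5, Slc2a12 and Slc6a20a. Of the 57 higher members 1 was matched so: for Slc6a15 such RNA came to 179% of its juvenile level of 1.88 CPM. The part of that RNA in these changes was not tested. The endothelial fits are drawn in the plot of changes in ECs.

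**Figure D2:**
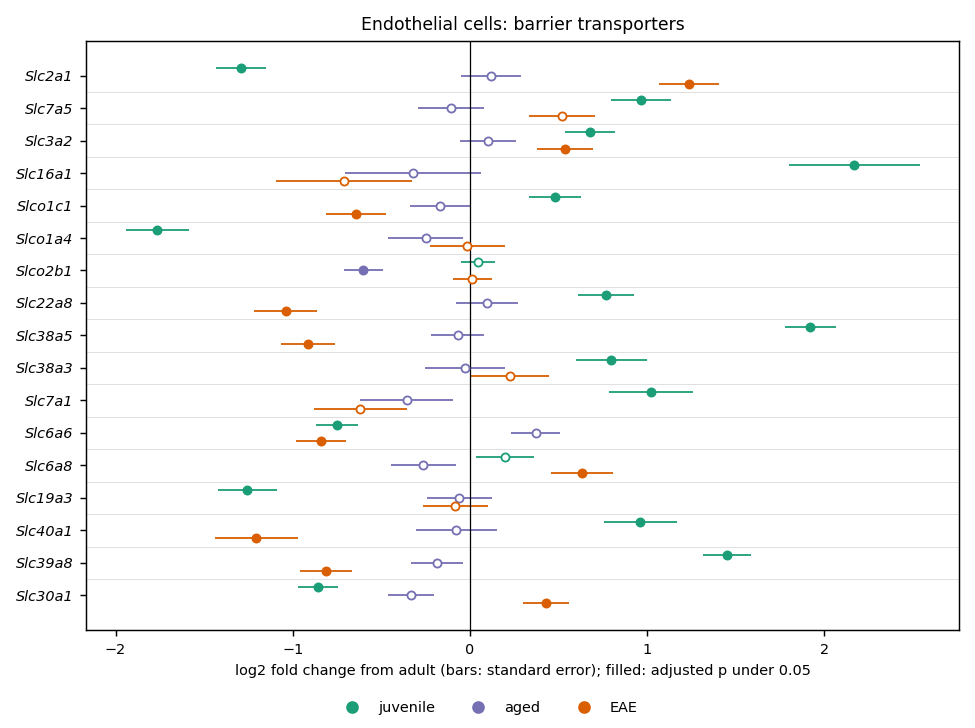
Log2 fold change from adult (bars, standard error) of listed barrier carriers in ECs of juvenile, aged and EAE mice; filled points had an adjusted p under 0.05. Slc38a5, Slc40a1, Slc39a8 and Slc22a8 lie right of 0 in juvenile and left of 0 in EAE ECs, and Slc2a1 the other way round, at -1.29 and 1.24.

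From adult to 18 months few endothelial carriers were called. Of 204 tested, 14 were called (6.86%, against 5.85% of all genes), 4 higher (2.33% of all genes) and 10 lower (3.52%). The share lies near the background. Only 1 member (Slc16a3) was called with close pairs summed, and 1 member was called when either aged library was left out. Without Adult 1 the count was 16. The median change of members was -0.09, beside 0.00 over all genes.

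The member that was called also with close pairs summed was Slc16a3 (MCT4), which exports lactate. It stood at 11 and 10.1 CPM in aged ECs and at 2.99, 2.21 and 3.03 in adult ECs (1.98 ± 0.24, adjusted p = 3.61e-04). The neutrophil cluster held it at 352 and 530.2 CPM in the aged libraries, with 48 and 47 cells there against 3 to 5 in each adult library, and the part of neutrophil RNA was not tested. The neutral amino acid carrier Slc43a2 (LAT4) fell to 8.97 and 12.2 CPM from 23.9, 55.2 and 68.1 (-2.35 ± 0.34, adjusted p = 0.00569). Both aged libraries lay outside the adult range for both genes. The sodium-coupled inositol carrier Slc5a3 fell to 75 and 72.2 CPM from 108, 163 and 166 (-0.98 ± 0.20, adjusted p = 0.0162), and Slc5a6, which carries biotin and pantothenate, to 20.01 and 20.7 from 20.9, 40.6 and 40.7 (-0.88 ± 0.17, adjusted p = 0.00906). The organic anion carrier Slco2b1 fell to 135 and 142 CPM from 203, 214 and 220.1 (-0.60 ± 0.11, adjusted p = 0.00632). For Slc5a6 the adult library nearest to the aged ones was Adult 1, just above both. Slc26a10 rose to 103 and 108 CPM from 62.8, 68 and 73.7 (0.62 ± 0.13, adjusted p = 0.0154). The main barrier carriers were not called: Slc2a1 was at 2585 and 2554 CPM in aged ECs (0.12 ± 0.17, adjusted p = 0.739), Slco1a4 at 1683 and 1658 (-0.25 ± 0.21, adjusted p = 0.547) and Slc7a5 at 511 and 596 (-0.11 ± 0.19, adjusted p = 0.792).

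In EAE, 39 of 204 endothelial members were called (19.1%, against 24.7% of all genes), 13 higher (14.1% of all genes) and 26 lower (10.6%). The share lies below that of all genes, with no test of the difference. With close pairs summed 15 were called, without Adult 1 43, and without 1 or the other EAE library 22 and 23. Scaling to plain totals in place of TMM factors gave 7 higher and 42 lower, and shifted the median of all genes to -0.18. The median member change was -0.06, beside 0.01 over all genes.

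Slc2a1 rose to 4871 and 4923 CPM in the EAE libraries from 2644, 2203 and 2144 in the adult libraries (1.24 ± 0.17, adjusted p = 1.22e-04), with no overlap, and was still called with close pairs summed. Slc16a3, which was low in ECs, rose to 28.8 and 28.7 CPM from 2.99, 2.21 and 3.03 (3.61 ± 0.23, adjusted p = 7.24e-08), and Slc16a6, another member of the monocarboxylate family, to 19.6 and 20.9 from 8.97, 4.84 and 4.27 (2.21 ± 0.25, adjusted p = 2.28e-05). Neither overlapped, and Slc16a6 overlaps exons of Amz2 on the other strand. Myeloid cells express Slc16a3 as well: the monocyte and macrophage cluster of EAE 1 and EAE 2 held 187 and 206 CPM and the neutrophil cluster 503 and 480 CPM. Ccr2, a monocyte marker that was at 321 and 285 CPM in those monocytes, was at 3.17 and 2.77 CPM in EAE ECs. The part of myeloid RNA in the rise was not tested. The phosphate carrier Slc20a1 rose to 36.9 and 39.1 CPM from 8.97, 16.6 and 17.5 (1.42 ± 0.26, adjusted p = 0.00236), and the mitochondrial carriers Slc25a33, for pyrimidine nucleotides, and Slc25a25, for ATP-magnesium and phosphate, to 67.4 and 69.8 (1.02 ± 0.17, adjusted p = 5.88e-04) and 50.7 and 52.8 CPM (0.81 ± 0.17, adjusted p = 0.00392).

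By class, of 20 genes tested in the same 5 amino acid families 1 rose and 4 fell in EAE ECs, of 5 Slc1 genes none was called, of 7 Slc6 genes 1 rose (Slc6a8) and 1 fell (Slc6a6), of 17 zinc and manganese carriers 2 rose and 2 fell, and of 7 organic anion carriers (Slco genes) 1 fell. Slc38a5 was at 152 and 148 CPM against 285, 355 and 354 in adult ECs (-0.91 ± 0.15, adjusted p = 5.95e-04), Slc40a1 at 148 and 153 against 272, 497 and 493 (-1.20 ± 0.23, adjusted p = 0.0033) and Slc39a8 at 83.3 and 91.5 against 143, 196 and 195 (-0.81 ± 0.15, adjusted p = 0.00124). Both EAE libraries lay below all adult libraries for these 3 genes. Slc22a8 was at 202 and 207 CPM against 418, 557 and 515 (-1.04 ± 0.18, adjusted p = 8.10e-04), Slco1c1 at 611 and 614 against 982, 1211 and 1218 (-0.64 ± 0.17, adjusted p = 0.0128) and Slc29a1 at 19 and 20.2 against 37.4, 50.9 and 52.5 (-1.12 ± 0.15, adjusted p = 9.60e-05). These did not overlap either. The calls of Slc38a5, Slc40a1, Slc39a8, Slc22a8 and Slco1c1 were lost with close pairs summed, that of Slc29a1 was not.

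Further named members fell in EAE. The taurine carrier Slc6a6 was at 722 and 683 CPM against 1308, 1559 and 1602 (-0.84 ± 0.14, adjusted p = 6.16e-04). Slc16a4, an orphan of the monocarboxylate family, was at 84.8 and 84.9 CPM against 217, 257 and 261 (-1.31 ± 0.17, adjusted p = 1.26e-04) and Slc5a6 at 10.4 and 11.2 against 20.9, 40.6 and 40.7 (-1.60 ± 0.17, adjusted p = 1.40e-05), both called with close pairs summed as well. Slc43a2 stood at 9.86 and 6.93 CPM (-2.49 ± 0.33, adjusted p = 7.36e-04), close to its aged level. For all of them the 2 EAE values lay below the 3 adult values. Slco1a4 was not called, at 1711 and 1738 CPM (-0.01 ± 0.21, adjusted p = 0.979). Of the 26 members that fell, 3 (Slc22a17, Slc29a4 and Slc39a12) had at least 50% of their adult level matched by carried choroid plexus RNA.

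The promoters of Slc2a1 and Slc16a3 are shown because Slc2a1 is the glucose carrier of the barrier and Slc16a3 the member with the largest rise in EAE ECs, and because the core letters of the hypoxia response element, ACGTG, can be looked for in them. They are RefSeq sequences of GRCm38.p6, 250 bases before to 50 after the start, plus strand, with ACGTG (or CACGT, the same letters on the other strand) in capitals. Slc2a1 is at chr4:119108495-119108794 and Slc16a3 at chr11:120948817-120949116.
Slc2a1: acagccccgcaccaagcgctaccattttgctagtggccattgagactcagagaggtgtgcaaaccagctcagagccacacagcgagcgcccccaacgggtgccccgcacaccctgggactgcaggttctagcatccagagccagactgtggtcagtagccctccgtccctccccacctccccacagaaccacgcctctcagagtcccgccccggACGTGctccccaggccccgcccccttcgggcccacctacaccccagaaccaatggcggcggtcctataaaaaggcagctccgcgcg
Slc16a3: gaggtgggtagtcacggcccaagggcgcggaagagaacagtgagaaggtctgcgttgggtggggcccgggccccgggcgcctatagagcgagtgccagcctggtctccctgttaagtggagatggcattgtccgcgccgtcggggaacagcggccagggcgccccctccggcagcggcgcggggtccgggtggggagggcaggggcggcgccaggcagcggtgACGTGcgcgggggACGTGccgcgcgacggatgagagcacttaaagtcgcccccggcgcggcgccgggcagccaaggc
Slc2a1 held the letters at 1 place and Slc16a3 at 2. Of 166 members with a promoter in the table, 30.7% held them on either strand, against 21.8% of 27025 genes and 19.6% of 32851 promoters. Of the named members higher in EAE ECs, 4 of 5 with an entry held them (Slc2a1, Slc16a3, Slc20a1 and Slc25a33, not Slc25a25), and of those lower 1 of 5. These few were picked by the size of their change in these data, from 13 members called higher and 26 lower. No comparison is drawn from them, and a part of hypoxia in the changes was not tested. A match describes letters and not a binding site.

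In the choroid plexus the juvenile comparison gave the most calls. Of 206 members tested, 119 were called (57.8%, against 57.5% of all genes), 60 higher (27.7%) and 59 lower (29.9%), a share near the background. Summing close pairs left 83 calls, leaving out Adult 1 gave 121, and plain totals gave 78 higher and 45 lower while moving the median of all genes to 0.16. The median member change was 0.07, beside -0.02 over all genes. Carriers for bicarbonate and anions were counted as a class: of 7 Slc4 members 6 rose and none fell, with Slc4a2 not called, and on plain totals, which move all genes up, directions were the same for those named here.

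Slc4a10, a sodium bicarbonate carrier of the basolateral membrane, was at 495, 484, 502 and 532 CPM in juvenile epithelium and 298, 219 and 222 in adult epithelium (0.79 ± 0.11, adjusted p = 4.17e-06), and Slc4a5 at 224, 222, 258 and 266 against 159, 124 and 124 (0.61 ± 0.11, adjusted p = 8.42e-05). Slc4a7 was at 25.6, 33.3, 26.4 and 29.1 CPM against 8.94, 4.87 and 7.08 (1.75 ± 0.17, adjusted p = 4.49e-08). None of the 3 overlapped. Slc12a2 (NKCC1), the sodium, potassium and chloride cotransporter of the apical membrane, was at 450.4, 451, 474 and 474 CPM against 270.2, 241 and 231 (0.70 ± 0.10, adjusted p = 7.99e-06). The sulfate carrier Slc13a4 was at 244, 249.7, 264 and 279 CPM against 132, 102 and 106 (0.97 ± 0.11, adjusted p = 2.65e-07) and the ascorbate carrier Slc23a2 at 198, 184, 198 and 210.1 against 119, 91.5 and 96.8 (0.72 ± 0.11, adjusted p = 8.85e-06). Juvenile libraries lay above all adult libraries for each.

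Slc6a15, a neutral amino acid carrier known from neurons, was at 213, 195, 176 and 184 CPM in juvenile epithelium against 19.3, 16.4 and 16.6 (3.24 ± 0.13, adjusted p = 7.23e-14). Slc26a7, an anion exchanger, was at 61, 46.4, 36.2 and 39.8 CPM against 6.97, 5.27 and 6.5 (2.60 ± 0.20, adjusted p = 6.53e-09). Neither overlapped. Lower in juvenile epithelium were the lactate carrier Slc16a8, at 65.5, 71.1, 75.1 and 70.9 CPM against 119, 129 and 113 (-0.93 ± 0.10, adjusted p = 9.01e-08), the small neutral amino acid carrier Slc7a10, at 35, 48.9, 38.2 and 37.2 against 104, 89.6 and 91.6 (-1.48 ± 0.12, adjusted p = 3.56e-09), the zinc importer Slc39a4, at 9.85, 11.6, 17.7 and 17 against 35.6, 46.9 and 52 (-1.67 ± 0.18, adjusted p = 1.03e-06), and Slc25a5, at 528, 504, 557 and 559 against 805, 929 and 963 (-0.89 ± 0.10, adjusted p = 5.18e-07). Slc7a10 overlaps exons of Lrp3 on the other strand. Of 36 Slc25 genes, 8 rose and 12 fell.

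Other falls came with endothelial RNA. The 10 EC markers, none at 0, were found in choroid plexus cells at 5.6% to 5.99% of their EC level in adult, 3.49% to 4.96% in aged, 1.69% to 1.77% in EAE and 1.02% to 1.54% in juvenile libraries. Of the 59 members lower in juvenile epithelium, 14 had at least 50% of their adult level matched by the endothelial RNA carried there, and of 34 lower in EAE 16 did. The adult libraries held Slc9a3r2 at 84.4, 60.8 and 69.8 CPM, the juvenile libraries at 11.3, 15.1, 10.4 and 13.6 and the EAE libraries at 16.5 and 16.1, and carried RNA matched 89.1% of the adult level. Slc6a6 stood at 38.9, 53.7 and 52.8 CPM in adult epithelium, against 14.8, 13.1, 12.5 and 12.5 in the juvenile libraries and 11.3 and 12.7 in the EAE libraries. Carried RNA came to 179% of its adult level, more than was measured, so it was estimated too high for this member. For Slc2a1 it matched 66.6%, for Slco1a4 73.2%, for Slc40a1 97.4% and for Slco2b1 58.9%. These are members that lead in or are abundant in ECs, and the part of carried RNA in their falls was not tested. The plot of endothelial RNA in the choroid plexus sets both side by side.

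**Figure D3:**
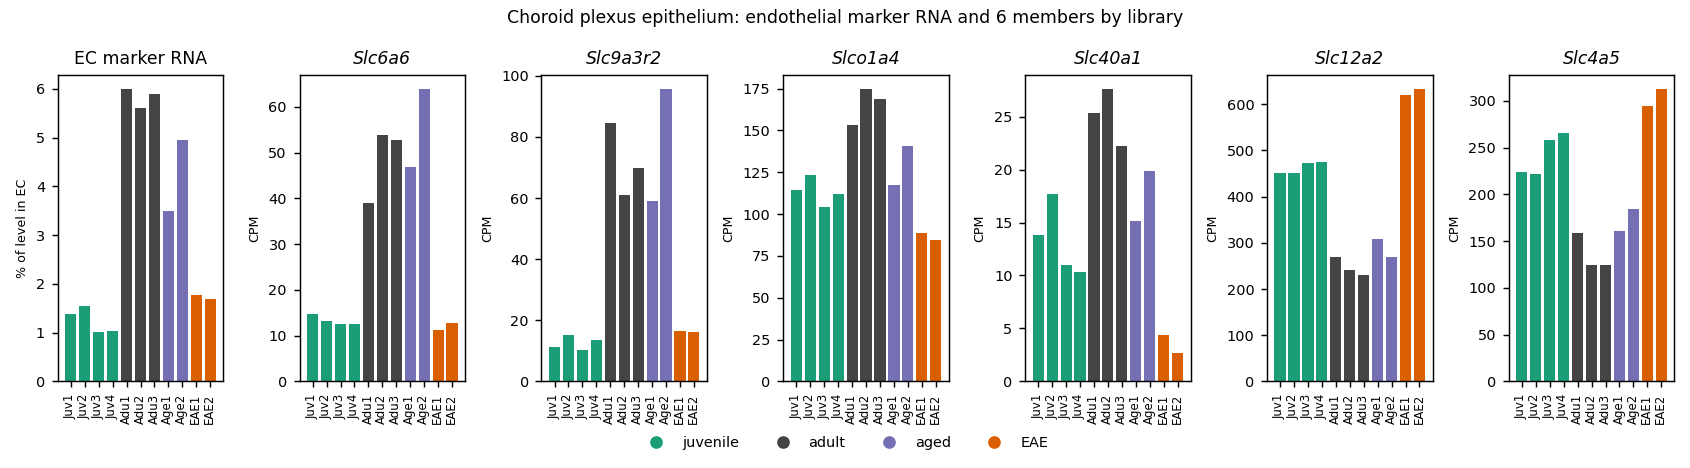
Choroid plexus epithelium, 1 bar per library: endothelial marker RNA as a percent of its level in ECs (left) and CPM of 6 members. Marker RNA, Slc6a6, Slc9a3r2, Slco1a4 and Slc40a1 are lower in all juvenile and EAE libraries than in all adult libraries, while Slc12a2 and Slc4a5 are higher.

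Between adult and aged epithelium 2 of 206 members were called (0.971%, against 1.65% of all genes), 1 higher (0.721%) and 1 lower (0.928%). None was called with close pairs summed, where 9 members had an unadjusted p under 0.05, and none by DESeq2, where 16 had one. Without Adult 1 7 were called, without Adult 3 or Aged 2 1 and without Aged 1 none. They were named after their values were seen. The thiamine carrier Slc19a2 was at 14.4 and 16 CPM in aged and 8.21, 9.94 and 6.31 in adult epithelium (0.92 ± 0.21, adjusted p = 0.021). Slc24a3, a sodium, calcium and potassium exchanger, had no UMI in either aged library and stood at 2.81, 0.811 and 2.1 CPM in the adult libraries, too few for a fold change. Of the ion carriers, Slc12a2 was at 308 and 270.2 CPM in aged epithelium (0.21 ± 0.12, adjusted p = 0.467) and Slc4a10 at 264 and 265 (0.05 ± 0.12, adjusted p = 0.91).

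In EAE, Slc12a2 and 5 of 7 Slc4 members rose in the choroid plexus. Of 206 members, 75 were called (36.4%, against 32.9% of all genes), 41 higher (16.9%) and 34 lower (16%). Summing close pairs left 29 calls. Leaving out either EAE library gave 46 and leaving out Adult 1 gave 85. Plain totals gave 52 higher and 28 lower and moved the median of all genes to 0.08. The median member change was 0.06, beside 0.00 over all genes. The share of members called lies near the background. None of the 7 Slc4 members fell, and of 5 cation-chloride cotransporters Slc12a2 rose and 4 were not called.

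Slc12a2 was at 619 and 633 CPM in EAE against 270.2, 241 and 231 in adult epithelium (1.22 ± 0.12, adjusted p = 2.19e-07). Slc4a5 was at 295 and 313 CPM against 159, 124 and 124 (1.02 ± 0.12, adjusted p = 4.88e-06), Slc4a10 at 443 and 491 against 298, 219 and 222 (0.77 ± 0.12, adjusted p = 9.00e-05) and Slc4a2, a chloride and bicarbonate exchanger, at 398 and 411 against 299, 271 and 275 (0.41 ± 0.11, adjusted p = 0.00627). The EAE libraries lay above the adult libraries for all 4. With close pairs summed, Slc12a2 and Slc4a5 were still called and Slc4a10 and Slc4a2 were not. Slc13a4 was at 258 and 245 CPM against 132, 102 and 106 (1.01 ± 0.12, adjusted p = 3.76e-06) and Slc23a2 at 226 and 225 against 119, 91.5 and 96.8 (1.0 ± 0.12, adjusted p = 3.79e-06).

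Other classes were split: of 21 genes tested in the 5 amino acid families 3 rose and 3 fell, and of 5 Slc1 genes 1 fell (Slc1a1). Of 8 Slc6 genes 3 rose and 3 fell, and of 18 zinc and manganese carriers 3 rose and 4 fell. Several of those that fell had most of their adult level matched by carried endothelial RNA. It came to 118% for Slc38a5, 89.2% for Slc7a1, 104% for Slc1a1, 179% for Slc6a6, 107% for Slc39a8 and 112% for Slc39a10. The part of that RNA in these falls was not tested. Slc6a20a was at 175 and 192 CPM in EAE against 91.7, 69.6 and 62.9 (1.14 ± 0.13, adjusted p = 3.37e-06), the zinc carrier Slc39a9 at 56.1 and 49.7 against 28.1, 18.1 and 23.7 (1.02 ± 0.14, adjusted p = 2.03e-05) and Slc45a4, of a family of proton-linked sugar carriers, at 72.8 and 64 against 30.2, 25.6 and 27.5 (1.18 ± 0.13, adjusted p = 1.26e-06). Slc16a8 was at 232 and 232 CPM against 119, 129 and 113 (0.86 ± 0.11, adjusted p = 7.13e-06). None of the 4 overlapped. The monoamine carrier Slc29a4 fell to 132 and 135 CPM from 152, 171 and 181 (-0.39 ± 0.12, adjusted p = 0.0155), and Slc7a10 to 52.9 and 58 from 104, 89.6 and 91.6 (-0.90 ± 0.14, adjusted p = 6.66e-05); neither was matched by endothelial RNA to 50%. Slc22a17, the most abundant member, was not called, at 1136 and 1139 CPM (0.00 ± 0.11, adjusted p = 0.992).

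**Figure D4:**
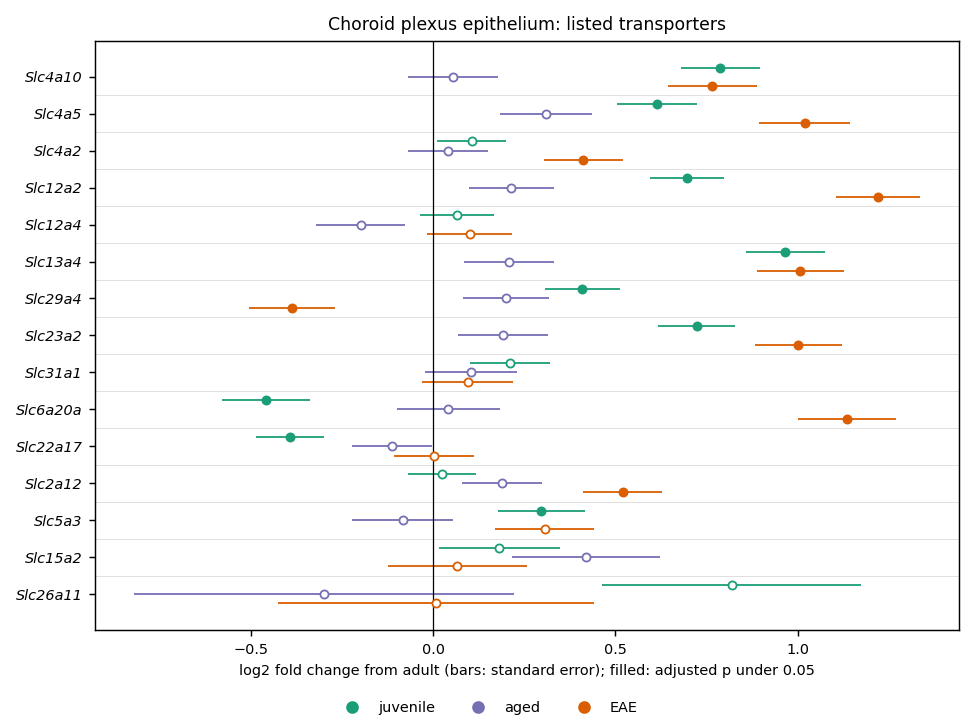
Log2 fold change from adult (bars, standard error) of listed choroid plexus carriers in juvenile, aged and EAE epithelium; filled points had an adjusted p under 0.05. Slc4a10, Slc4a5, Slc12a2, Slc13a4 and Slc23a2 lie right of 0 in juvenile and EAE epithelium, and no aged point is filled.

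Pericytes gave less power: 170 of 216 members did not pass the filter, adult pericytes were 1 unit (Adult 2 and 3 summed), and that lone unit is assumed to vary like the others. Of 46 members tested, 16 were called between juvenile and adult pericytes (34.8%, against 17.1% of all genes), 3 higher (7.91%) and 13 lower (9.2%). With close pairs summed 83 members passed the filter and 17 were called, DESeq2 called 9, and leaving out 1 library at a time gave 11 to 17. The median member change was -0.25, beside 0.02 over all genes, and the members that passed do not stand for the family. The members that led in pericytes were among those lower in juvenile cells. The cell sets compared were not alike. Juvenile 1 to 4 held 97, 87, 25 and 23 mural cells not named further, beside 37, 27, 32 and 32 pericytes. Adult 2 and 3 held 8 and 8, beside 69 and 58. Naming by marker score gave 78 and 77 pericytes in Juvenile 1 and 2. The smooth muscle marker Acta2 was at 102, 106, 120 and 25.4 CPM in juvenile pericytes and at 9.36 and 10.9 in adult ones. The part of this in the changes was not tested.

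Slc6a20a was at 366, 434, 594 and 729 CPM in the juvenile libraries and at 2190.1 and 2071 in Adult 2 and 3 (-2.14 ± 0.19, adjusted p = 2.61e-15), and Slc19a1 at 698, 679.9, 872 and 983 against 1806 and 1417 (-1.14 ± 0.18, adjusted p = 4.75e-07). Slc16a12 was at 129, 73.7, 113 and 136 CPM against 187 and 251 (-1.05 ± 0.33, adjusted p = 0.0168) and Slc30a10 at 189.8, 188, 150.3 and 178 against 356 and 218 (-0.84 ± 0.29, adjusted p = 0.0273). The 4 juvenile values lay below both adult values for each. The GABA and taurine carrier Slc6a13 (GAT2) was at 27.1, 81.9, 75.1 and 76.3 CPM against 281 and 382 (-2.47 ± 0.34, adjusted p = 3.81e-09), the amino acid carrier Slc38a11 at 149, 98.3, 188 and 169 against 459 and 436 (-1.68 ± 0.27, adjusted p = 2.66e-07) and the glutamine carrier Slc1a5 (ASCT2) at 54.2, 90.1, 82.7 and 102 against 262 and 338 (-1.99 ± 0.33, adjusted p = 6.01e-07). They too were without overlap. Slc22a8 was at 285, 303, 428 and 314 CPM against 777 and 818 (-1.38 ± 0.22, adjusted p = 2.66e-07), and the organic anion carrier Slco3a1 at 74.6, 131, 173 and 136 against 328 and 359.7 (-1.55 ± 0.30, adjusted p = 2.54e-05).

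The 3 members higher in juvenile pericytes were Slc25a5, at 1125, 967, 1247 and 1093 CPM against 562 and 599.5 (0.81 ± 0.22, adjusted p = 0.0032), the scaffold gene Slc9a3r1, at 441, 336, 586 and 542 against 234 and 164 (1.11 ± 0.29, adjusted p = 0.00221), and the proton exchanger Slc9a9, at 81.4, 41, 82.7 and 42.4 against 9.36 and 0 (3.29 ± 1.21, adjusted p = 0.0452), which rests on few UMIs. Endothelial marker RNA in pericytes stood at 6.01% to 7.32% of its EC level in juvenile and 9.46% to 9.75% in adult libraries. Of the 13 members lower in juvenile pericytes, 3 (Slc2a1, Slc6a6 and Slco1a4) had at least 50% of the adult level matched by that RNA, and its part was not tested. The match came to 123%, 171% and 188%, above the measured level in each, so the estimate was too high. Fibroblast marker RNA was at 4.79% to 12.9% of its own level in juvenile and 4.34% to 6.86% in adult pericytes, with 2 to 6 of its 8 markers at 0.

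No member was called between aged and adult pericytes (0 of 46, against 0.389% of all genes, of which 0.156% were higher and 0.233% lower), nor with close pairs summed, while a fit of aged and adult alone called 2. By edgeR 3 members had an unadjusted p under 0.05, and DESeq2 called 0. Slc6a20a was at 1746 and 1731 CPM and Slc19a1 at 1384 and 1283 CPM in aged pericytes. In EAE 1 member was called (2.17%, against 2.02% of all genes, 1.35% higher and 0.674% lower). It was Slc22a8, at 446 and 383 CPM against 777 and 818 (-0.98 ± 0.26, adjusted p = 0.0199), and it was not called with close pairs summed, by DESeq2, or without Adult 2, EAE 1 or EAE 2. Without Juvenile 2, Juvenile 3 or Adult 3 the count was 2, with cell types by marker score it was 6, and in a fit of EAE and adult alone 3. Slc22a8 fell in EAE ECs as well, in the comparison that shares the adult libraries.

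**Figure D5:**
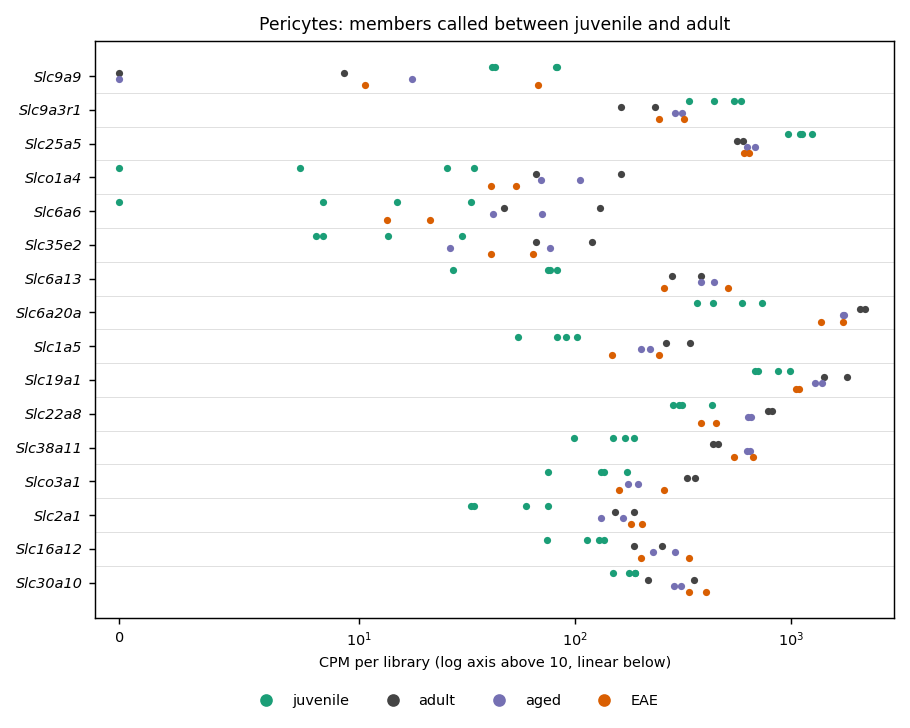
CPM per library of the 16 members called between juvenile and adult pericytes, 1 point per library, coloured by condition. The 4 juvenile points of Slc6a20a (366 to 729 CPM) lie left of the adult points (2071 and 2190 CPM), and aged and EAE points lie between 1372 and 1746 CPM.

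Whether a change differed between cell types was tested by interaction terms in 1 fit of all 3 types, in which 214 members were tested. Between choroid plexus and ECs the juvenile change of 106 members differed (42.2% of all genes), the aged change of 11 (3.01%) and the EAE change of 67 (20.1%). Between pericytes and ECs the numbers were 9 (2.01%), 1 (0.0692%) and 0 (0.396%), the last with 9 members at an unadjusted p under 0.05. With close pairs summed, the choroid plexus numbers were 84, 3 and 37 and the pericyte numbers 9, 1 and 0. Cell types by marker score gave 4 for aged choroid plexus, 17 for juvenile and 5 for EAE pericytes, and 11 separate libraries gave 17 for aged choroid plexus. Without Aged 1 that number was 0. The 1 aged pericyte call was lost without Adult 2, Adult 3 or Aged 1. Members called in both types in opposite directions, with a called difference, numbered 22 for juvenile and 4 for EAE choroid plexus, of 197 members tested in both types (11.2% and 2.03%, against 9.99% and 1.46% of all genes tested in both). In aged choroid plexus there were 0, against 0.017% of all genes. In juvenile pericytes there were 2 of 43 members (4.65%, against 0.9% of all genes), and in aged and EAE pericytes 0 among members and among all genes. The 4 in EAE choroid plexus included Slc2a1, with 1.24 ± 0.17, adjusted p = 1.22e-04 in ECs and -0.67 ± 0.14, adjusted p = 0.00125 in the choroid plexus, Slc5a6 and Slc16a11. In adult choroid plexus, carried endothelial RNA came to 123 to 158 of 189 to 226 CPM of Slc2a1. In EAE it came to 83.4 to 86.2 of 134 to 147 CPM, and its part in the fall was not tested. Slc5a6 rose to 88.7 and 98.8 CPM from 62.7, 55.2 and 63.5 in the choroid plexus (0.53 ± 0.12, adjusted p = 0.00155) while it fell in ECs. In juvenile pericytes Slc19a1 and Slc22a8 fell while they rose in ECs. Of the 22 in juvenile choroid plexus, Slc7a5, Slc38a5, Slc40a1 and Slc39a8 had 97.4% to 118% of their adult level there matched by carried endothelial RNA.

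Genes outside the family that work with it gave a mixed picture, from a list of 24 symbols with the sodium pump, its regulators, chaperones of the monocarboxylate carriers, pyruvate carriers and carriers without an Slc symbol. Flvcr1 and Flvcr2 are listed also under their other symbols Mfsd7b and Mfsd7c, so the list holds fewer distinct genes than symbols. In ECs 21 were tested: 5 rose and 1 fell in juvenile (37.7% of all genes were called), 1 rose and 1 fell in aged (5.85%), and 2 rose and 3 fell in EAE cells (24.7%). Mfsd2a, which carries lysophosphatidylcholine with omega-3 fatty acids, was higher in juvenile and lower in EAE ECs, by 1.18 ± 0.14, adjusted p = 1.88e-05 and -0.53 ± 0.16, adjusted p = 0.0257. In the choroid plexus 20 were tested, of which 3 rose and 10 fell in juvenile (57.5% of all genes), 2 rose and none fell in aged (1.65%), and 3 rose and 2 fell in EAE epithelium (32.9%). Bsg (basigin), the chaperone of Slc16a1, Slc16a3 and Slc16a8, was at 6443 CPM in adult and 3238 CPM in juvenile epithelium (-0.99 ± 0.09, adjusted p = 2.89e-08) and at 3987 CPM in EAE (-0.69 ± 0.11, adjusted p = 1.04e-04). In pericytes 9 were tested: 4 fell in juvenile cells (17.1% of all genes were called), none was called in aged cells (0.389%) and 1, Bsg, fell in EAE cells (2.02%). Adult ECs held Bsg at 19264 CPM and adult pericytes at 2318 CPM, while endothelial marker RNA in pericytes was at 9.46% to 9.75% of its EC level in adult and 7.54% to 9.15% in EAE libraries. The part of carried RNA in the changes of Bsg was not tested.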

How the data were processed

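The deposited values were raw UMI counts per gene and cell. Per the submitters' processing notes the authors demultiplexed reads with bcl2fastq 2.19.1.403, handled barcodes with UMI-tools 0.5.3, aligned to mm10 with STAR 2.5.3a and assigned reads with featureCounts 1.6.1 (the study's methods give other versions of the last 3), and the strand setting is not given in the sources used here. Cells with over 500 and under 6000 genes and under 25% mitochondrial UMIs were kept and clustered with scanpy 1.11.5 (12 principal components, 2000 variable genes, 20 neighbours, Leiden resolution 0.5) without Slc genes. Scrublet called 818 cells (1.62%) doublets. They were kept, and left out in an alternative. Counts were summed per library and cell type (at least 10 cells) and tested in 1 fit of the 4 conditions by edgeR 4.0.16 (quasi-likelihood, robust, with TMM factors and its filterByExpr filter, Benjamini-Hochberg over all genes tested, 0.05) in R 4.3.3. Differences between cell types were interaction terms with the unit as a block. DESeq2 1.42.0 was an alternative. The procedure was run on simulated data in which libraries were independent and all genes shared 1 level of spread. Close library pairs like those seen here were not simulated, so the run does not measure their effect on the calls. Members, lists and tests were chosen with earlier results of these data known. Named members were the 10 with the highest adult level per cell type, listed barrier carriers, and up to 6 called per direction and comparison. The last had to reach 20 CPM in the higher group and have libraries of the 2 groups that did not overlap. Their lack of overlap was set by the choice and adds no support. Of all called members, 92 of 100, 14 of 14 and 38 of 39 did not overlap in juvenile, aged and EAE ECs. In the choroid plexus these were 100 of 119, 2 of 2 and 74 of 75, and in juvenile pericytes 16 of 16. Some named items are not reported here. Others are named as chosen after their values were seen: Slc9b2, Slc24a3 and Slc19a2 are such cases.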

Additional observations from a re-analysis of the deposited data

Results flagged for a closer look

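Groups of 4 libraries were searched for a library far from the other 3 by Dixon's test, which marks about 1 group in 20 by chance, and 5 of 97 were marked. The lowest juvenile library stood apart for Slc16a6 in ECs (10.6 CPM), for Slc2a1 (70.1 CPM) and Slco3a1 (16.2 CPM) in the choroid plexus, and for Slc25a4 (874.6 CPM) and Slc6a13 (27.1 CPM) in pericytes.

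Named members called in opposite directions in 2 cell types, with a called interaction term, are given as the log2 change in the choroid plexus minus that in ECs. In the juvenile comparison the difference was -1.73 for Slc25a5, -1.39 for Slc25a4 and -1.05 for the phosphate carrier Slc25a3, which rose in ECs and fell in the choroid plexus. It was -1.45 for Slco1c1, -1.81 for Slc7a5, -2.88 for Slc38a5, -2.30 for Slc40a1, -2.70 for Slc39a8 and -2.77 for Slc29a1. It was 2.04 for Slc4a5, 1.31 for Slc25a25 and 1.10 for Slc35e2, which fell in ECs and rose in the choroid plexus. In EAE it was -1.89 for Slc2a1, 2.08 for Slc5a6 and 1.72 for Slc16a11. Pericytes minus ECs gave -1.93 for Slc22a8 and -2.62 for Slc19a1 in the juvenile comparison. Endothelial RNA in choroid plexus cells, highest in adult libraries, moved with several of these, and choroid plexus RNA carried in adult ECs matched 152% of their level of Slc4a5. The part of carried RNA was not tested.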

How the results depend on the processing

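No named member reversed its direction under any alternative. Members named for a called change without overlap could hardly reverse when 1 library was left out, so this adds little support for them. Of 4125 values over the alternatives, 3819 kept their direction and side of the threshold and 306 kept the direction but lost the call. None of the alternatives corrected for carried RNA, so directions after such a correction were not tested. For Slco1a4 in the choroid plexus, carried endothelial RNA came to 105 to 132 of 153 to 175 CPM in adult libraries. In juvenile libraries, where Slco1a4 was called lower, it came to 6.28 to 6.85 of 104 to 123 CPM. The cause was not tested for the counts that follow. With close pairs summed (6 units), members called fell from 100 to 52 (juvenile), 14 to 1 (aged) and 39 to 15 (EAE) in ECs, from 2 to 0 (aged) and 75 to 29 (EAE) in the choroid plexus, and from 1 to 0 in EAE pericytes. The interaction, an alternative added after seeing the data, fell from 11 to 3 (aged) and 67 to 37 (EAE) for the choroid plexus. With 11 separate libraries, aged ECs gave 23, EAE pericytes 2, and the interaction 17 for aged choroid plexus and 1 for EAE pericytes. DESeq2 gave 0 for aged choroid plexus, 9 for juvenile and 0 for EAE pericytes. Aged choroid plexus gave 6 with no filter on low counts. Fits of only the 2 conditions compared gave 0 there, 2 for aged and 3 for EAE pericytes. Cell types by marker score gave 6 for EAE pericytes, and the interaction 4 for aged choroid plexus, 17 for juvenile and 5 for EAE pericytes. With the set-aside cells put back, an alternative chosen after seeing the data, EAE pericytes gave 2.

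Leaving out each library in turn gave 89 to 100, 1 to 17 and 22 to 43 calls in juvenile, aged and EAE ECs, 105 to 121, 0 to 7 and 46 to 85 in the choroid plexus, and 11 to 17, 0 to 0 and 0 to 2 in pericytes. The interaction gave 97 to 107, 0 to 13 and 45 to 71 for the choroid plexus and 7 to 9, 0 to 1 and 0 to 1 for pericytes. The aged interaction of the choroid plexus fell from 11 to 0 without Aged 1.

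Replicate numbers do not pair the libraries: deviations of same-numbered libraries correlated at -0.14 to 0.21 in ECs, -0.23 to 0.22 in the choroid plexus and -0.03 to 0.02 in pericytes. With the replicate block, counts were 112, 25 and 46 in ECs, 117, 5 and 78 in the choroid plexus and 13, 0 and 2 in pericytes. Cell numbers limit pericytes most, with 27 to 114 cells in each library used.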
